A study of Rattus norvegicus with 12 samples.

Results

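Oxaliplatin and paclitaxel were compared directly in rat dorsal root ganglion, with no reference to untreated tissue. The comparison sets the 4 libraries titled oxaliplatin against the 4 titled paclitaxel, 8 of the 12 libraries of the series, and describes the genes whose level differed between the drugs. The 4 vehicle libraries entered the same fit, where they add to the estimate of spread but not to the difference. Rats received paclitaxel at 2.0 mg/kg (DMSO diluted with saline) or oxaliplatin at 2.4 mg/kg in glucose solution, by intraperitoneal injection, as a model of chemotherapy-induced peripheral neuropathic pain. The doses and the solvents therefore differ along with the drug and cannot be told apart from it. The solvent of the vehicle group is not named. The strain, sex and age of the rats, the number and timing of injections, the time of tissue collection and the level of the ganglia are not given in the sources used here. Vehicle levels are given below for orientation only, with no test against them.

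Dorsal root ganglia hold the cell bodies of sensory neurons, each wrapped by satellite glial cells, together with Schwann cells, resident macrophages, fibroblasts and vessels. Paclitaxel binds tubulin and stabilises microtubules, which blocks mitosis in dividing cells and disturbs transport along axons. Oxaliplatin is a platinum compound that forms adducts on DNA. Both drugs cause a painful peripheral neuropathy, and the ganglion lies outside the blood-brain barrier and is exposed to both.

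The 12 libraries held 17008728 to 17615736 estimated counts each, and 20152 genes were listed in at least 1 library. After a filter on low counts 15809 genes were tested and 4343 were set aside. Neuronal genes were abundant in all 8 drug libraries: Prph, the peripheral neuronal intermediate filament, stood between 1191 and 2086 on the deposited FPKM scale, which divides by gene length and library total, and Rbfox3, the nuclear antigen NeuN, between 46.8 and 75.3 FPKM. The satellite glial gene Fabp7 stood between 31.5 and 79.8 FPKM. No label states that the 4 libraries of a group came from separate animals, so the p-values rest on how these libraries varied, and that variation could be technical. Replicates differed by more than counting noise, with a mean chi-square per gene of 8.07 to 44.9 between pairs within a drug. Paclitaxel 4 stood furthest from its group. A list score is the mean log2 CPM of the members minus its mean over the 8 drug libraries. Paclitaxel 4 had the lowest paclitaxel score, towards oxaliplatin, for general neuronal markers (0.02), large myelinated neurons (-0.16) and synaptic genes (-0.04). Oxaliplatin 4 had the highest oxaliplatin score, towards paclitaxel, for these lists. Nociceptor markers differed by score: paclitaxel 4 had the highest paclitaxel score for the non-peptidergic (0.21) and peptidergic (0.14) lists. By summed CPM, however, paclitaxel 4 was the lowest paclitaxel library for both lists (3532.3 and 6888.6).

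Between the drugs, 1044 genes were higher and 744 lower in the oxaliplatin libraries, which is 6.6% and 4.71% of the genes tested (edgeR quasi-likelihood test, Benjamini-Hochberg adjusted p under 0.05, 4 libraries per group). The 2 directions differed in size. Of the genes higher with oxaliplatin, 312 differed at least 2-fold (29.9%), with a median log2 fold change of 0.73. Of those lower, only 25 did (3.4%), with a median log2 fold change of -0.38. The genes that were lower were also the more abundant ones, with a median of 6.62 on the mean log2 CPM scale (CPM are counts scaled to the library total) against 3.66 for those that were higher. In 905 of the higher genes and 520 of the lower ones the 4 libraries of one drug did not overlap with the 4 of the other. Over all tested genes, the oxaliplatin libraries lay wholly above the paclitaxel libraries for 9.17% of genes and wholly below for 6.1%. The vehicle mean lay between the 2 drug means for 925 of the 1044 higher and 642 of the 744 lower genes. These genes were called for a difference between the drug means, which by itself favours a vehicle mean inside that gap. The share over all tested genes is not given, so whether the drugs moved genes in opposite directions from vehicle was not tested.

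The split between directions depended on the method. The count methods DESeq2 (1352 higher and 1443 lower) and edgeR with RLE scaling (991 and 893) gave 48.4% and 52.6% of called genes higher. With the 8 drug libraries alone there were 757 higher and 259 lower (74.5% higher). On log2(FPKM + 1) the deposited FPKM values gave 1507 genes higher and 277 lower, so that 84.5% of the called genes were higher against 58.4% from counts. With a pseudocount of 0.1 the FPKM values gave 1456 and 263. The counts of calls also rested on single libraries. Without paclitaxel 4 they came to 1786 higher and 1677 lower, and without paclitaxel 1, 2 or 3 to 506 and 304, 462 and 217, and 427 and 174. Without oxaliplatin 2 there were 634 and 267, and without oxaliplatin 3 there were 393 and 178. No called gene given with values changed the sign of its difference in any of 20 alternatives, and no scaling moved the median of all genes by over 0.1 on the log2 scale. Lost calls of single genes are named below mostly for left-out libraries. Other methods lost calls too. Of 126 called genes named, 21 lost their call with the 8 drug libraries alone and 20 with the replicate number as a block. On FPKM values 12 (pseudocount 1) and 14 (0.1) lost it, and with DESeq2 2 did.

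**Figure D1:**
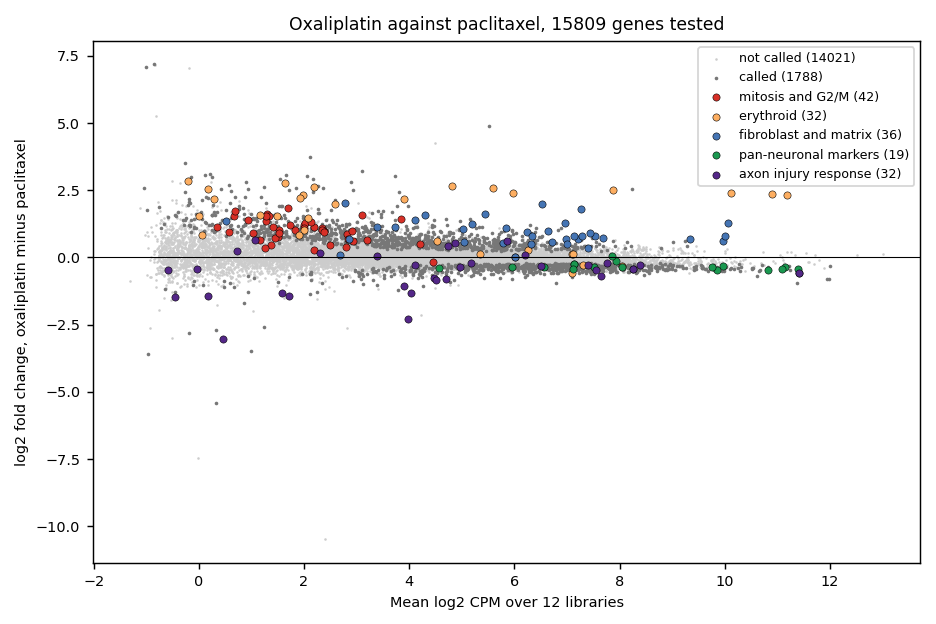
Mean level (log2 CPM over 12 libraries, x axis) against the log2 fold change of oxaliplatin minus paclitaxel (y axis) for the 15809 tested genes, grey for genes not called, dark grey for the 1788 called, and coloured for members of 5 gene lists. The 42 genes of mitosis lie almost all above 0, 29 of the 32 erythroid genes lie above 0 with the haemoglobin genes far to the right, and the neuronal markers form a tight band just below 0.

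Genes of mitosis made up the list with the largest share called. They act in the last phases of the cell cycle, in which chromosomes are condensed, aligned on the spindle and separated. Of 42 members tested, 33 were higher in oxaliplatin (78.6%, against 6.6% of all genes), and 41 had a positive log2 fold change, with a median of 1.02 against 0.0042 over all genes. Mki67, the proliferation antigen Ki-67, had the smallest p of all tested genes, although its estimated count shares reads with other features and is uncertain. It measured 26.6, 19, 22.6 and 26.1 CPM in the oxaliplatin libraries, 8.41, 7.86, 8.46 and 10.3 with paclitaxel and 10.6, 10.3, 10.8 and 10.7 with vehicle. The lowest oxaliplatin library was above the highest of the other 8, and the log2 fold change between the drugs was log2 fold change 1.43 ± 0.12 SE, adjusted p = 0.000119. Top2a, the topoisomerase that untangles replicated chromosomes, measured 14.7, 12.7, 12.4 and 18 CPM with oxaliplatin and 5.14, 4.46, 4.2 and 5.52 with paclitaxel (log2 fold change 1.58 ± 0.15 SE, adjusted p = 0.000266). Cenpf, a protein of the kinetochore, measured 7.16, 5.63, 5.08 and 5.28 CPM against 1.69, 1.41, 1.48 and 1.8 (log2 fold change 1.85 ± 0.21 SE, adjusted p = 0.000551). Aurkb, the kinase of the chromosomal passenger complex, and Cdk1, the kinase that drives entry into mitosis, differed by 1.61 ± 0.22 and 1.19 ± 0.18 on the log2 scale.

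Mitotic genes were expressed at low levels in this tissue, where neurons do not divide. The summed level of the 42 genes was 154.1 to 168.1 CPM with paclitaxel, 157.7 to 176.2 with vehicle and 250.5 to 327.6 with oxaliplatin, so that the paclitaxel range lay beside the vehicle range and the oxaliplatin range lay apart. The 33 calls became 26 to 34 when any 1 library was left out. Among the genes with the smallest p outside the list, Arhgap11a, a gene of dividing cells, measured 9.64, 9.08, 8.59 and 8.93 CPM with oxaliplatin and 3.21, 4.22, 3.91 and 3.89 with paclitaxel (log2 fold change 1.25 ± 0.12 SE, adjusted p = 0.000266). The mitotic genes Aurka, the spindle pole kinase, with a log2 fold change of -0.15, and Ccnb1, cyclin B1, with 0.40, both with uncertain counts, were not called. In whole tissue, more cells of a type and more RNA per cell cannot be told apart. Markers of red cell precursors and of B cells, which include dividing cells where they are formed, were also higher with oxaliplatin, as described below. The mitosis score was highest in oxaliplatin 1 (0.68) and oxaliplatin 4 (0.60), whereas the erythroid score was highest in oxaliplatin 3 (1.20) and oxaliplatin 1 (1.07) and was 0.32 in oxaliplatin 4. Their part in the mitotic difference was not tested.

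Promoters of the 5 mitotic genes with the smallest p among those with an entry in the promoter table are shown, because these genes moved together and because many genes of this phase are known to carry the cell cycle homology region (CHR element, TTTGAA) beside CCAAT boxes (CCAAT). Each run holds the 250 bases before the annotated start, from the first entry of RefSeq for that gene on build GRCr8, on the strand of the gene, with capitals marking every match to either motif on either strand, so that TTCAAA and ATTGG are matches on the opposite strand.
Mki67 (chr1:199952594-199952843, minus strand): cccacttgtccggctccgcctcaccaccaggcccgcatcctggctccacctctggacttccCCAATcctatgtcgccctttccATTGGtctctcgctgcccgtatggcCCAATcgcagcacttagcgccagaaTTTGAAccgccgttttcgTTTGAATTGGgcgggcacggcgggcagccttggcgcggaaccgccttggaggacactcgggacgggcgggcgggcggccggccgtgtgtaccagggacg
Top2a (chr10:84473094-84473343, minus strand): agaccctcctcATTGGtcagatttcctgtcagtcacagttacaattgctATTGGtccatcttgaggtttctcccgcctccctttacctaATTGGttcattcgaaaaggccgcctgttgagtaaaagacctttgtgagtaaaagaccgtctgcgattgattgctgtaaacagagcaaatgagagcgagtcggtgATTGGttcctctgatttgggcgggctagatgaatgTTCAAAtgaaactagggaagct
Cenpf (chr13:103760887-103761136, minus strand): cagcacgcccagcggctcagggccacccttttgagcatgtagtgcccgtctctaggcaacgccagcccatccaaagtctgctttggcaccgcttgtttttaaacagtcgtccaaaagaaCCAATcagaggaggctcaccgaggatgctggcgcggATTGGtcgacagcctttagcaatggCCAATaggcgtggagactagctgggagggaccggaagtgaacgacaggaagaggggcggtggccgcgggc
Cdk1 (chr20:19265043-19265292, plus strand): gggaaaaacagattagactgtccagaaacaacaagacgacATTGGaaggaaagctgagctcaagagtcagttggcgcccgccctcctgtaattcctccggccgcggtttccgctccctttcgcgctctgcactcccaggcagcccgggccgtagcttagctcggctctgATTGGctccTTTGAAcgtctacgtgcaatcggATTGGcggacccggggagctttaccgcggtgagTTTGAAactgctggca
Prc1 (chr1:143659231-143659480, plus strand): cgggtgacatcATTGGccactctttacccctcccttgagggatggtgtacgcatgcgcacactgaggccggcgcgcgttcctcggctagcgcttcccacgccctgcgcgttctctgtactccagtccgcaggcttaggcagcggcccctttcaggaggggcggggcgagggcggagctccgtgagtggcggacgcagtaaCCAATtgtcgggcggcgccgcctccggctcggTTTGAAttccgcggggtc

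The Mki67 window held 2 CHR elements and 4 CCAAT boxes, and 1 of each overlapped. Cdk1 held 2 CHR elements and 3 CCAAT boxes, Top2a 1 and 4, and Prc1, whose product bundles the microtubules of the central spindle, 1 and 2. Cenpf held 3 CCAAT boxes and no match to TTTGAA in this window. Across the mitosis list, 15 of the 35 genes with a promoter in the table (42.9%) held a CHR element, against 10.4% of the 12194 tested genes with a promoter, and 26 (74.3%) held a CCAAT box against 34.9%. Both motifs were present in 14 of 35 (40%) against 3.82%. Among the 26 called members with a promoter the shares were 42.3%, 76.9% and 38.5%, so the called members resembled the whole list. Among all genes called higher, 16% of 777 promoters held a CHR element. A match describes the letters only and not whether a factor binds there.

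**Figure D2:**
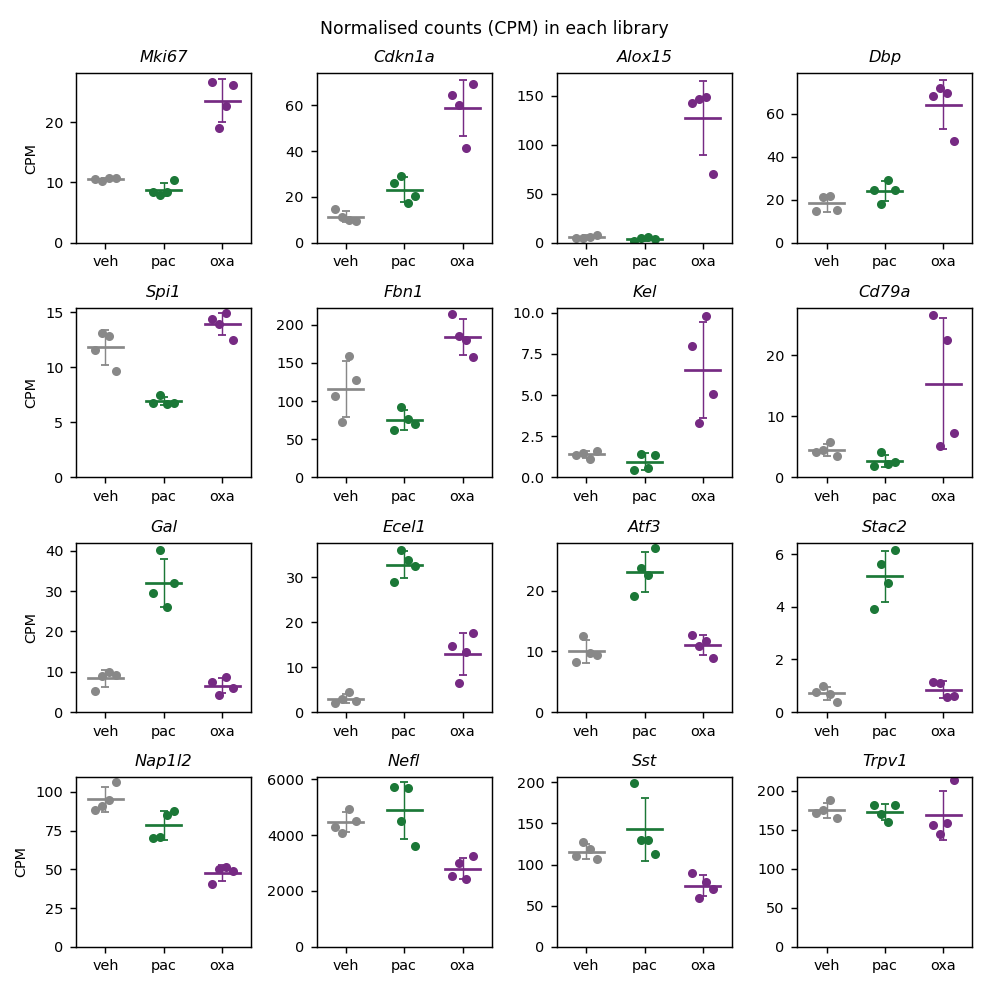
CPM in each of the 12 libraries (y axis, linear, from 0) for 16 genes in vehicle, paclitaxel (pac) and oxaliplatin (oxa), with points for libraries, horizontal lines for group means and bars for the SD (n = 4). Mki67, Cdkn1a, Alox15, Dbp, Spi1, Fbn1, Kel and Cd79a lie higher with oxaliplatin, Gal, Ecel1, Atf3, Stac2, Nap1l2, Nefl and Sst lie higher with paclitaxel, and Trpv1 overlaps.

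Genes of DNA replication differed in the same direction by less. Of 42 tested, 11 were higher with oxaliplatin (26.2%), with a median log2 fold change of 0.34. Mcm6, a subunit of the replicative helicase, measured 9.18, 7.7, 7.57 and 7.42 CPM against 3.39, 3.46, 4.2 and 4.18 (log2 fold change 1.06 ± 0.14 SE, adjusted p = 0.00136), and the helicase subunits Mcm5 and Mcm3 differed by 0.93 ± 0.15 and 1.10 ± 0.18. Uhrf1, which maintains DNA methylation through replication, differed by 1.48 ± 0.19, and Rrm2, the regulated subunit of ribonucleotide reductase, by 1.12 ± 0.20. Mean levels of E2f8, a repressor of the E2F family, were 1.89 ± 0.435 (SD) CPM with oxaliplatin and 0.398 ± 0.166 with paclitaxel. Pcna, the sliding clamp, had a log2 fold change of 0.36 and was not called. Lmnb1, the nuclear lamin that falls in senescent cells, measured 8.31, 5.46, 6.5 and 7.75 CPM with oxaliplatin and 2.6, 2.93, 3.61 and 3.31 with paclitaxel (log2 fold change 1.17 ± 0.17 SE, adjusted p = 0.00293).

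Targets of p53, the transcription factor stabilised by DNA damage, leaned higher with oxaliplatin by small amounts, with exceptions. Of 37 tested, 10 were higher and 2 lower (27% and 5.41%, against 6.6% and 4.71% of all genes). A positive log2 fold change was found in 30 and a negative one in 7, with a median of 0.20. The list score ran from 0.10 to 0.20 with oxaliplatin, -0.18 to -0.10 with paclitaxel and -0.24 to -0.12 with vehicle. Cdkn1a, which encodes the cell cycle inhibitor p21, measured 64.3, 60.03, 41.3 and 69 CPM with oxaliplatin, 26.1, 28.9, 17.2 and 20.6 with paclitaxel and 14.7, 11.3, 10.1 and 9.3 with vehicle. All 4 oxaliplatin libraries lay above all 4 paclitaxel libraries (log2 fold change 1.34 ± 0.19 SE, adjusted p = 0.00257), which in turn lay above the vehicle libraries. Rbm38, an RNA-binding protein induced by p53 and abundant in red cell precursors, is outside the list and not among the 37 genes counted. It measured 30.3, 23.6, 36.1 and 20.2 CPM against 5.62, 8.45, 9.06 and 5.98 (log2 fold change 1.92 ± 0.19 SE, adjusted p = 0.000266), with a vehicle mean of 12 CPM. Ckap2, a spindle protein also listed as a p53 target, differed by 1.66 ± 0.21, and Ephx1, microsomal epoxide hydrolase, by 0.68 ± 0.09, the last with an uncertain count. Several members also act in proliferating or immune cells (Ckap2, Psrc1, Gtse1, Casp1, Cd80). The genes for the p53 regulator Mdm2 and the apoptosis receptor Fas had log2 fold changes of 0.24 and 0.20 and were not called. Gadd45a, induced by DNA damage and by axon injury, was lower with oxaliplatin, at 17.4, 19.99, 20.2 and 18.8 CPM against 31.4, 29.7, 34 and 36.4 (log2 fold change -0.78 ± 0.10 SE, adjusted p = 0.000993), and the metabolic target Tigar was also lower (-0.41 ± 0.10), a call lost without paclitaxel 1, 2 or 3 or oxaliplatin 2 or 3 (highest adjusted p of 20 alternatives 0.0886). The number of higher p53 targets was 3 to 6 without paclitaxel 1, 2 or 3 (4, 4 and 3) or oxaliplatin 1, 2, 3 or 4 (5, 4, 6 and 6).

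Repair of platinum adducts on DNA involves nucleotide excision, the Fanconi pathway and translesion polymerases. Of 41 such genes tested, 5 were higher and 1 lower, with a median log2 fold change of 0.13, and the shares of 12.2% and 2.44% stand beside 6.6% and 4.71% of all genes. Brca1 differed by 0.65 ± 0.16, and the translesion polymerase genes Rev1 and Rev3l by 0.33 ± 0.09 and 0.47 ± 0.14, both with uncertain counts. The excision repair gene Rad23b was lower (-0.25 ± 0.07), a call lost without paclitaxel 1, 2 or 3 or oxaliplatin 1, 2 or 3 (highest adjusted p of 20 alternatives 0.121). None of the 5 higher calls remained without paclitaxel 1, paclitaxel 3 or oxaliplatin 3, and the count was 1 to 3 without any other library except paclitaxel 4 and oxaliplatin 4. Of 26 genes for drug efflux and platinum transport, Abcb1b, which encodes a P-glycoprotein drug pump, was the one called. That share of 3.85% lies below the 6.6% of all genes called higher. It measured 2.31, 5.17, 3.67 and 5.56 CPM with oxaliplatin, 0.423, 0.528, 0.77 and 0.639 with paclitaxel and 0.347, 0.526, 0.572 and 0.287 with vehicle. The drug groups lay well apart (log2 fold change 2.81 ± 0.32 SE, adjusted p = 0.000639), but its count is uncertain, and its close relative Abcb1a, also uncertain, had a log2 fold change of 0.30 with no call.

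Genes of the circadian clock, a feedback loop in which period and cryptochrome proteins repress their own activators, were called in part. Of 22 tested, 8 were higher with oxaliplatin (36.4%), with a median log2 fold change of 0.14. The 8 were Per2 and Per3, the nuclear repressors Nr1d1 and Nr1d2, the output transcription factors Dbp and Tef, and the repressors Bhlhe40 and Ciart, of which Tef was no longer called without oxaliplatin 3 (highest adjusted p of 20 alternatives 0.056), nor Ciart without vehicle 1, 2 or 4 or paclitaxel 1, 2, 3 or 4 or oxaliplatin 1, 2 or 3 (highest adjusted p of 20 alternatives 0.126). Dbp measured 68.1, 71.9, 69.9 and 47.2 CPM with oxaliplatin, 24.4, 18, 29.2 and 24.4 with paclitaxel and 14.7, 21.3, 21.8 and 15.4 with vehicle (log2 fold change 1.42 ± 0.17 SE, adjusted p = 0.000981). Per3 measured 43.4, 44.5, 55.4 and 43.4 CPM against 20.5, 19.4, 24.4 and 26.5 (log2 fold change 1.04 ± 0.12 SE, adjusted p = 0.000639), with vehicle at 21.3, 24.8, 25 and 20.5. In both genes every oxaliplatin library was above the other 8. Nr1d1 and Per2, both with uncertain counts, differed by 1.23 ± 0.20 and 1.01 ± 0.17. The activator genes Clock (0.09) and Arntl (-0.22), the cryptochromes Cry1 (0.05) and Cry2 (-0.13) and Per1 (-0.12) were not called, with uncertain counts for Clock and Cry2. The E-box letters CACGTG, bound by the clock activators, were present in 3 of the 8 called genes' promoter windows, 4 of 18 tested members with a promoter (22.2%) and 7.75% of all tested genes.

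Alox15, a lipoxygenase that oxidises arachidonic and linoleic acid, showed the largest difference among genes with a mean of at least 1 on the log2 CPM scale. It measured 143, 146, 149 and 70.5 CPM with oxaliplatin, 1.87, 5.28, 6.27 and 3.6 with paclitaxel and 4.51, 5.38, 6.24 and 8.38 with vehicle. Oxaliplatin 4 stood well below the other 3 oxaliplatin libraries and still far above all 8 remaining libraries, and the difference was log2 fold change 4.89 ± 0.36 SE, adjusted p = 0.000119, a ratio of fitted means of 29.7. Of 26 enzymes of lipid mediators tested, Alox15 among them, 4 were higher and 1 lower (15.4% and 3.85%), with a median log2 fold change of 0.35. Of all genes 6.6% were higher and 4.71% lower. Pla2g4a, the cytosolic phospholipase that releases arachidonic acid, measured 4.91, 4.94, 3.5 and 2.81 CPM against 0.726, 1.47, 1.24 and 2.21 (log2 fold change 1.51 ± 0.34 SE, adjusted p = 0.0166), and Ptgis, prostacyclin synthase, differed by 0.69 ± 0.20, a call lost without vehicle 4 or paclitaxel 1, 2, 3 or 4 or oxaliplatin 1, 2 or 3 (highest adjusted p of 20 alternatives 0.135). The gene Ggt5, which cleaves leukotriene C4, was lower (-0.39 ± 0.10), a call lost without paclitaxel 2 or 3 or oxaliplatin 2 or 3 (highest adjusted p of 20 alternatives 0.0904). Alox5, which starts leukotriene synthesis, and Ptgs1, cyclooxygenase-1, had log2 fold changes of 0.68 (uncertain) and 0.38 and were not called. The higher count of this list was 2 without paclitaxel 3, where Pla2g4a lost its call (adjusted p = 0.054).

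Genes of the axon injury response, which sensory neurons induce after their axons are cut or damaged, were lower with oxaliplatin. Of 32 tested, 13 were lower (40.6%, against 4.71% of all genes) and 2 higher, with a median log2 fold change of -0.42. Galanin (Gal), a neuropeptide induced in injured sensory neurons, measured 7.51, 4.14, 8.64 and 6.07 CPM with oxaliplatin, 29.6, 40.2, 26.1 and 32.1 with paclitaxel and 5.26, 9.06, 10.1 and 9.18 with vehicle. The oxaliplatin libraries overlapped with vehicle, and the paclitaxel libraries lay above all 8 others (log2 fold change -2.28 ± 0.23 SE, adjusted p = 0.000298). Atf3, the transcription factor most used as a marker of injured neurons, measured 12.8, 11, 11.7 and 8.88 CPM with oxaliplatin, 19.1, 23.8, 22.6 and 27 with paclitaxel and 8.21, 12.6, 9.73 and 9.47 with vehicle (log2 fold change -1.06 ± 0.15 SE, adjusted p = 0.00235), with an uncertain count. Ecel1, a neuronal membrane peptidase, measured 14.6, 6.55, 13.3 and 17.6 CPM with oxaliplatin, 28.9, 36, 33.8 and 32.5 with paclitaxel and 2.08, 2.98, 4.41 and 2.47 with vehicle (log2 fold change -1.33 ± 0.24 SE, adjusted p = 0.00783). Here both drug groups lay above every vehicle library. Sox11, a transcription factor of axon regrowth, measured 1.44, 1.38, 1.81 and 2.53 CPM against 4.11, 4.69, 5.21 and 3.95 (log2 fold change -1.32 ± 0.27 SE, adjusted p = 0.0108).

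Further injury genes were lower by smaller amounts. Stmn4, a stathmin that binds tubulin, measured 19.1, 16.7, 15.9 and 14.8 CPM against 25.1, 27.6, 28.6 and 31.8 (log2 fold change -0.77 ± 0.10 SE, adjusted p = 0.00152), and Plaur, the urokinase receptor, 13.6, 18.7, 13.7 and 16 against 28.4, 25.2, 27.8 and 28.5 (log2 fold change -0.82 ± 0.12 SE, adjusted p = 0.00235). For Plaur the vehicle libraries measured 22, 24, 25.2 and 28.7 CPM and overlapped with paclitaxel but not with oxaliplatin. Hspb1, a small heat shock protein of injured neurons, differed by -0.70 ± 0.14 and Gap43, a protein of growth cones, by -0.41 ± 0.09. Ankrd1 measured 0.231, 0.46, 0.452 and 0.337 CPM with oxaliplatin and 1.27, 4.4, 2.66 and 4.12 with paclitaxel, and was called at these low levels. The called exceptions were Csf1, the macrophage growth factor made by injured neurons, with 0.55 ± 0.11, and the tubulin Tubb6, with 0.44 and an uncertain count, a call lost without paclitaxel 1, 2 or 3 or oxaliplatin 1 or 2 (highest adjusted p of 20 alternatives 0.0997). Jun (-0.31), Gch1 (0.63) and Sema6a (-0.37) were not called. The 13 lower calls stayed within 1.5 times that number whichever library was left out. Stac2, an adaptor of voltage-gated calcium channels outside the list, had the largest difference among the lower genes at a mean of at least 1 on the log2 CPM scale. It measured 1.15, 1.09, 0.565 and 0.618 CPM with oxaliplatin, 3.93, 5.63, 4.91 and 6.16 with paclitaxel and 0.751, 0.994, 0.687 and 0.402 with vehicle (log2 fold change -2.58 ± 0.29 SE, adjusted p = 0.000551).

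General markers of neurons were lower with oxaliplatin by a small and even amount. Of 19 tested, 9 were lower (47.4%) and 18 had a negative log2 fold change, with a median of -0.36. Nsg1, a neuronal endosomal protein, measured 154, 160.03, 150.1 and 163 CPM against 199.8, 196, 206 and 199 (log2 fold change -0.35 ± 0.06 SE, adjusted p = 0.00696). Stmn2, the neuronal stathmin, measured 1706, 1515, 1393 and 1543 CPM against 2143, 2136, 2187 and 1941 (log2 fold change -0.45 ± 0.09 SE, adjusted p = 0.0107), with vehicle at 1619, 1915, 1779 and 1980.1. Pou4f1, a transcription factor of sensory neurons, differed by -0.41 ± 0.09 (uncertain), and Avil, an actin-binding protein found in these neurons, by -0.48 ± 0.12. Rbfox3 (-0.34), Prph (-0.41) and Isl1 (-0.40) had differences of like size and were not called. The list score, the mean log2 CPM of the members minus its mean over the 8 drug libraries, ran from -0.26 to 0.00 with oxaliplatin, 0.02 to 0.30 with paclitaxel and -0.12 to 0.05 with vehicle. Oxaliplatin 4 (0.00) and paclitaxel 4 (0.02) almost met. Without paclitaxel 4 there were 14 lower calls and without oxaliplatin 4 there were 15, and without paclitaxel 1, 2 or 3 or oxaliplatin 3 there were 5. The call of Avil was lost without paclitaxel 1, 2 or 3 or oxaliplatin 2 or 3 (highest adjusted p of 20 alternatives 0.0709). Markers of blood cells, fibroblasts and vessels moved the opposite way in the same libraries, and since CPM values share 1 total, their part in the lower neuronal values was not tested.

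The neurofilament subunits, the main intermediate filaments of large myelinated axons, were lower by more than most of these markers. Nefl measured 2551, 2985, 2426 and 3245 CPM with oxaliplatin, 5710.3, 4509, 5697 and 3617 with paclitaxel and 4302, 4082, 4949 and 4516 with vehicle (log2 fold change -0.80 ± 0.14 SE, adjusted p = 0.00688). Nefm measured 2812, 2778, 2224 and 3267 CPM against 5558, 4464, 5769 and 3597 (log2 fold change -0.81 ± 0.15 SE, adjusted p = 0.00788) and Nefh 1786, 1716, 1326 and 2132 against 4249.7, 2990.2, 3848 and 2182 (log2 fold change -0.93 ± 0.19 SE, adjusted p = 0.0108). In all 3 the oxaliplatin libraries lay below the vehicle libraries, and the paclitaxel libraries spread on both sides of vehicle, with paclitaxel 4 the lowest. Whether these 3 differences exceed that of other neuronal genes was not tested. The wider list of 13 neurofilament and other intermediate filament genes, which mixes neuronal, glial and nuclear members, had 5 lower and 1 higher (38.5% and 7.69%). Its median of 0.04 turned negative without paclitaxel 2 or oxaliplatin 2. Its lower count was 3 without paclitaxel 1, 2 or 3 or oxaliplatin 2. Among 26 markers of large myelinated neurons, 6 were lower and 1 higher (23.1% and 3.85%), with a median of -0.32. Without paclitaxel 2 or 3 or oxaliplatin 2 or 3 there were 3 lower calls, and without paclitaxel 4 there were 12.

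Markers of nociceptors, the neurons that detect damaging stimuli, were lower in part. Of 25 markers of the non-peptidergic class, 8 were lower (32%) and 1 higher, with a median of -0.28, and of 16 peptidergic markers 2 were lower (12.5%), with a median of -0.17. Somatostatin (Sst), a peptide of itch-related neurons, measured 89.4, 59.6, 78.2 and 70.3 CPM with oxaliplatin, 199, 130.1, 129.5 and 112 with paclitaxel and 110.5, 127, 119 and 107 with vehicle (log2 fold change -0.94 ± 0.16 SE, adjusted p = 0.00627). Il31ra, a receptor for interleukin-31 on the same neurons, measured 60.9, 81.5, 78.3 and 104 CPM against 119.6, 123, 126 and 123 (log2 fold change -0.59 ± 0.12 SE, adjusted p = 0.0109), with an uncertain count. The ATP-gated channel gene P2rx3 measured 676, 624, 679 and 626 CPM against 766, 826, 826 and 829 (log2 fold change -0.32 ± 0.07 SE, adjusted p = 0.0191). Calca, which encodes CGRP, measured 1502, 1309.9, 1179 and 1384 CPM against 1546, 2009, 1591 and 1878 with vehicle at 1245, 1415, 1314 and 1162 (log2 fold change -0.39 ± 0.11 SE, adjusted p = 0.0362), again with an uncertain count. P2rx3 lost its call without paclitaxel 2 or 3 or oxaliplatin 2 (highest adjusted p of 20 alternatives 0.0606) and Calca without vehicle 1 or paclitaxel 2 or 3 or oxaliplatin 2 or 3 (highest adjusted p of 20 alternatives 0.114). On FPKM values both calls were also lost. Calca further lost its call with the 8 drug libraries alone and with the replicate number as a block. Non-peptidergic calls numbered 4 without paclitaxel 1, 2 or 3 and 3 without oxaliplatin 2 or 3.

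Of 26 neuropeptides and trophic factors, 7 were lower (26.9%) and 1 higher, with a median of -0.35. Beside Gal, Sst and Calca, Bdnf, a growth factor released by nociceptors, measured 14.3, 14.3, 9.77 and 18.7 CPM against 23, 26.3, 25.9 and 21.3 (log2 fold change -0.76 ± 0.18 SE, adjusted p = 0.0221), and its call was lost without paclitaxel 2 or 3 or oxaliplatin 2 or 3 (highest adjusted p of 20 alternatives 0.0661). Fam150b, a ligand of the receptor tyrosine kinase Alk, measured 10.7, 9.08, 6.33 and 18.5 CPM with oxaliplatin, 27.3, 37.8, 24.6 and 15 with paclitaxel and 4.22, 4.73, 3.26 and 2.53 with vehicle (log2 fold change -1.23 ± 0.33 SE, adjusted p = 0.0337). The drug groups overlapped, and the call was lost without paclitaxel 1, 2 or 3 or oxaliplatin 1, 2 or 3 (highest adjusted p of 20 alternatives 0.0923). Igf1, insulin-like growth factor 1, was the higher gene, at 81, 59.97, 55.6 and 48.8 CPM with oxaliplatin, 25.3, 28.2, 31.2 and 40.3 with paclitaxel and 66.6, 56.4, 88.3 and 83.9 with vehicle (log2 fold change 0.97 ± 0.18 SE, adjusted p = 0.00897). Oxaliplatin overlapped with vehicle, and paclitaxel lay below both. Igfbp5, which binds it, measured 262, 229, 241 and 188 CPM against 38.5, 89, 70.6 and 68.4, while vehicle ranged widely, at 136, 35.6, 256 and 222 (log2 fold change 1.79 ± 0.50 SE, adjusted p = 0.0466). The call of Igfbp5 was lost without vehicle 1 or 4 or paclitaxel 1, 2, 3 or 4 or oxaliplatin 1, 2, 3 or 4 (highest adjusted p of 20 alternatives 0.115). Lower calls among the neuropeptides numbered 4 without paclitaxel 2 and 3 without paclitaxel 3, oxaliplatin 2 or oxaliplatin 3.

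Few ion channel genes were called, and their number depended on the method. Of 15 sodium channel genes 3 were lower (20%, median -0.21), of 64 potassium channel genes 4 were lower and 3 higher (6.25% and 4.69%, median -0.26), of 19 calcium and HCN channel genes 1 was lower (5.26%, median -0.22), and of 29 TRP, mechanical and acid sensing channels 3 were lower and 2 higher (10.3% and 6.9%, median -0.11). The potassium and calcium channel shares lie near the background, but the calcium and HCN count was 5 without paclitaxel 4, 3 without oxaliplatin 4 and 0 without paclitaxel 1, 2 or 3. Scn1a, an alpha subunit of sodium channels, differed by -0.51 ± 0.12 (uncertain), and the sodium channel count was 0 without paclitaxel 2, paclitaxel 3, oxaliplatin 2 or oxaliplatin 3 and 1 without paclitaxel 1 or oxaliplatin 1. Kcnv1, a modifier subunit of potassium channels, measured 11.5, 12.5, 11.4 and 10.8 CPM against 17, 16.2, 17.8 and 15.5 (log2 fold change -0.53 ± 0.10 SE, adjusted p = 0.00696). Potassium channel genes lower with oxaliplatin numbered 21 without paclitaxel 4 and 16 without oxaliplatin 4, and 1 or 2 without any other drug library. By method that count was 16 with DESeq2, 26 with limma with quality weights and 10 with RLE scaling. It was 3 on FPKM values and 1 with the 8 drug libraries alone. A negative log2 fold change was found in 50 of the 64 potassium and 17 of the 19 calcium and HCN channel genes. Piezo1, a mechanically gated channel also found in vessels, measured 34.4, 33.7, 32.6 and 36 CPM against 16.6, 19.1, 22.7 and 21 (log2 fold change 0.78 ± 0.14 SE, adjusted p = 0.00628), with an uncertain count, and P2rx7, an ATP-gated channel of immune and glial cells, 40.1, 42.7, 47 and 41.3 against 21.5, 19.1, 19.2 and 34.3 (log2 fold change 0.86 ± 0.20 SE, adjusted p = 0.0185). P2rx7 lost its call without paclitaxel 1, 2 or 3 or oxaliplatin 3 (highest adjusted p of 20 alternatives 0.0629), and Scn1a without paclitaxel 2 or 3 or oxaliplatin 1, 2 or 3 (highest adjusted p of 20 alternatives 0.077). The lower count of the TRP, mechanical and acid sensing list was 9 without paclitaxel 4 and 6 without oxaliplatin 4. It was 0 or 1 without paclitaxel 2 or 3 or oxaliplatin 1, 2 or 3.

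The nociceptor channels most often linked to these neuropathies were not called. Trpv1, the capsaicin receptor, measured 156, 144, 159 and 214 CPM with oxaliplatin and 181, 169.7, 160.4 and 181 with paclitaxel (log2 fold change -0.04 ± 0.11 SE, adjusted p = 0.835). Trpa1, linked to cold pain after oxaliplatin, measured 60.1, 72.9, 59.9 and 79.4 CPM against 61, 95.1, 82.1 and 97.3 (log2 fold change -0.30 ± 0.14 SE, adjusted p = 0.156), and its adjusted p ran from 0.0352 to 0.386 over the alternatives. Scn9a and Scn10a, which encode Nav1.7 and Nav1.8, had differences of -0.21 ± 0.12 and -0.21 ± 0.12, both with uncertain counts and overlapping groups, and the adjusted p of Scn10a ran from 0.0369 to 0.576. Ccl2, a chemokine linked to paclitaxel pain, had -0.23 ± 0.21, with overlapping groups.

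Genes of the microtubule, the target of paclitaxel, were lower with oxaliplatin along with other neuronal genes. Of 43 tubulins and microtubule proteins, 13 were lower (30.2%) and 1 higher, with a median of -0.31. The neuronal beta-tubulin Tubb3 measured 2342, 2121, 1942 and 2619.8 CPM with oxaliplatin, 3914, 3266, 3496 and 2853 with paclitaxel and 2418, 2559.8, 2666 and 2669 with vehicle (log2 fold change -0.58 ± 0.11 SE, adjusted p = 0.009), with an uncertain count. All 4 paclitaxel libraries lay above the other 8, with paclitaxel 4 the closest to them. Ttl, the ligase that restores tyrosine to alpha-tubulin, measured 407, 421, 396 and 462 CPM against 599.9, 576, 597 and 498 (log2 fold change -0.43 ± 0.09 SE, adjusted p = 0.0108). Of 32 motor genes for axonal transport 10 were lower (31.2%, median -0.25). Dynll2, a dynein light chain, measured 784, 809, 796 and 887 CPM against 1265, 1148, 1161 and 1067 (log2 fold change -0.50 ± 0.08 SE, adjusted p = 0.00448), and Klc1, a kinesin light chain, differed by -0.46 ± 0.10, a call lost without oxaliplatin 3 (highest adjusted p of 20 alternatives 0.0502). Of 39 genes for synaptic vesicles and release 10 were lower (25.6%, median -0.30), among them Syt11 (-0.44 ± 0.08).

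These 3 lists rested on the libraries more than the injury list did. The microtubule count was 23 without paclitaxel 4, 20 without oxaliplatin 4, 7 without paclitaxel 1 or 2, 6 without oxaliplatin 2 and 5 without paclitaxel 3 or oxaliplatin 3. The motor count was 16 without paclitaxel 4, 5, 3 and 2 without paclitaxel 1, 2 and 3, 4, 3 and 1 without oxaliplatin 1, 2 and 3, and 6 without vehicle 1, 2 or 3. The synaptic count was 22 without paclitaxel 4, 18 without oxaliplatin 4, 4, 3 and 1 without paclitaxel 1, 2 and 3, 4, 3 and 1 without oxaliplatin 1, 2 and 3, and 5 without vehicle 1. Nap1l2, a nucleosome assembly protein of neurons, was among the 10 lower genes with the smallest p, at 40.3, 50.3, 51.3 and 49.1 CPM with oxaliplatin, 70.2, 70.9, 85.4 and 88 with paclitaxel and 88.6, 90.8, 94.9 and 106 with vehicle (log2 fold change -0.72 ± 0.10 SE, adjusted p = 0.0025). Its relatives Nap1l3 and Nap1l5 were also lower (-0.33 ± 0.09 and -0.29 ± 0.08). This family, a list chosen with earlier results of these data known, thus had 3 of 5 members called. That count was 1 without paclitaxel 1 or 3 or oxaliplatin 1 or 3 and 2 without paclitaxel 2 or oxaliplatin 2, while Nap1l2 kept its call in all 20 alternatives. Mrap2, an accessory protein of melanocortin receptors, measured 48.2, 48.4, 45 and 50.4 CPM against 74.2, 66.6, 77.2 and 64.2 (log2 fold change -0.56 ± 0.08 SE, adjusted p = 0.00225), and Rbm11, a splicing regulator, 45.4, 43.1, 40.4 and 46.1 against 63.4, 66.9, 72.1 and 56 (log2 fold change -0.56 ± 0.08 SE, adjusted p = 0.00304). In all 3 genes the oxaliplatin libraries lay below every vehicle library, and in Nap1l2 the paclitaxel libraries did so too.

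Macrophage genes were higher with oxaliplatin. Of 33 tested, 12 were higher (36.4%) and 32 had a positive log2 fold change, with a median of 0.68. Spi1, which encodes the myeloid transcription factor PU.1, measured 14.4, 13.9, 15 and 12.5 CPM with oxaliplatin, 6.77, 7.45, 6.69 and 6.74 with paclitaxel and 11.6, 13.2, 12.9 and 9.64 with vehicle (log2 fold change 1.01 ± 0.12 SE, adjusted p = 0.000639). Cd68, a lysosomal protein of macrophages, measured 9.3, 9.02, 10.3 and 9.55 CPM with oxaliplatin, 3.27, 4.87, 3.79 and 4.18 with paclitaxel and 5.89, 7.48, 7.55 and 6.37 with vehicle (log2 fold change 1.24 ± 0.14 SE, adjusted p = 0.000639). In both genes the paclitaxel libraries lay below all others. Blnk, an adaptor of B cells and macrophages, differed by 1.78 ± 0.22, and Csf1r, the receptor for Csf1, by 0.63, a call lost without vehicle 1 or paclitaxel 1, 2 or 3 or oxaliplatin 1, 2, 3 or 4 (highest adjusted p of 20 alternatives 0.118). The list score of vehicle (0.14 to 0.62) overlapped with that of oxaliplatin (0.22 to 0.58), and paclitaxel lay below both (-0.95 to -0.11), with paclitaxel 1 the lowest. The 12 calls became 4 without paclitaxel 1 or 3, 7 without paclitaxel 2, 6 without oxaliplatin 2 and 3 without oxaliplatin 3. Neutrophil scores overlapped between the drugs: 21 of 21 had a positive log2 fold change and 1 was called, and the score ran from -0.65 to 1.41 with oxaliplatin and from -1.15 to 0.21 with paclitaxel.

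Genes of complement and innate sensing mostly shifted in the same direction as the macrophage genes. Of 29 complement genes 11 were higher and 2 lower (37.9% and 6.9%, median 0.54). C1s, a protease that starts the classical pathway, measured 121, 123, 109.8 and 119.7 CPM with oxaliplatin, 40.9, 62.6, 51.4 and 66.6 with paclitaxel and 72.1, 59.7, 119 and 69.4 with vehicle (log2 fold change 1.10 ± 0.19 SE, adjusted p = 0.00689), and Serping1, its inhibitor, differed by 0.76 ± 0.17, a call lost without paclitaxel 1 (highest adjusted p of 20 alternatives 0.0514). The lower genes were Cd59, which protects cells from lysis (-0.31 ± 0.08, uncertain), and Cfi, with -0.46. Cd59 lost its call without paclitaxel 2 or 3 or oxaliplatin 1 or 3 (highest adjusted p of 20 alternatives 0.102), and Cfi without vehicle 1 or 3 or paclitaxel 1, 2, 3 or 4 or oxaliplatin 1, 2 or 3 (highest adjusted p of 20 alternatives 0.117). The higher complement calls numbered 3, 6 and 4 without paclitaxel 1, 2 and 3, 7 without oxaliplatin 1 or 2 and 4 without oxaliplatin 3. Of 31 genes of the Toll-like receptor pathway 6 were higher (19.4%, median 0.40), led by Nfkb2, an NF-kB subunit, at 24.5, 21.2, 24.1 and 20.5 CPM against 13.2, 13.8, 12.6 and 13.8 (log2 fold change 0.76 ± 0.12 SE, adjusted p = 0.00523). That count was 3 without paclitaxel 1 or oxaliplatin 3 and 10 without paclitaxel 4. Of 28 cytokines and chemokines 6 were higher (21.4%, median 0.39), among them Il16 (0.75 ± 0.13) and Cxcl12 (0.61 ± 0.12, uncertain), and 3 without paclitaxel 3. Of 39 interferon-stimulated genes 4 were higher and 1 lower (10.3% and 2.56%), and Ifi27l2b, the lower one, measured 98.7, 106, 89.6 and 89.9 CPM against 139, 129, 138 and 141 (log2 fold change -0.51 ± 0.08 SE, adjusted p = 0.0037). The higher count of that list was 2 without paclitaxel 1 and 1 without paclitaxel 2 or oxaliplatin 3. Of 15 genes of antigen presentation on MHC class II 2 were called higher (13.3%), the co-stimulators Cd80 (uncertain) and Cd86. No such call remained without paclitaxel 1, 2 or 3 or oxaliplatin 1, 2 or 3.

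Markers of red cells and B cells gave the largest median fold changes of the 50 lists. Of 32 erythroid genes tested, out of 39 listed, 21 were higher (65.6%) and 1 lower, with a median log2 fold change of 1.80. Rhd, which carries the Rhesus antigen, measured 8.95, 3.91, 9.21 and 4.78 CPM with oxaliplatin, 0.786, 1.76, 1.78 and 1.51 with paclitaxel and 2.83, 2.69, 3.15 and 2.47 with vehicle (log2 fold change 2.19 ± 0.31 SE, adjusted p = 0.00225). Kel, the Kell antigen, measured 7.97, 3.33, 9.83 and 5.06 CPM against 0.423, 1.41, 0.592 and 1.39 (log2 fold change 2.77 ± 0.39 SE, adjusted p = 0.00225). The alpha-globin gene Hba2 measured 3148, 1426, 3334 and 1037 CPM with oxaliplatin, 294, 515, 497 and 375 with paclitaxel and 421, 896, 735 and 757 with vehicle (log2 fold change 2.41 ± 0.39 SE, adjusted p = 0.00689, uncertain). In each of these, oxaliplatin 1 and 3 stood well above oxaliplatin 2 and 4, which were still above every paclitaxel and vehicle library. The nuclear factors of red cell precursors Klf1 and Tal1 were also higher, by 1.01 and 0.84, and Tal1 lost its call without vehicle 1 or paclitaxel 1, 2 or 3 or oxaliplatin 1 or 3 (highest adjusted p of 20 alternatives 0.108). The lower gene was Tfrc, the transferrin receptor, which many other cells express (-0.57 ± 0.11). The summed erythroid level was 6203.6 to 18269.5 CPM with oxaliplatin, 2253.2 to 4111.8 with paclitaxel and 3492.8 to 5553.9 with vehicle.

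Of 22 B and plasma cell genes tested, out of 29 listed, 13 were higher (59.1%) and 1 lower, with a median of 1.70. Cd79a, part of the B cell receptor, measured 26.6, 5.17, 22.6 and 7.25 CPM with oxaliplatin, 1.94, 4.11, 2.19 and 2.56 with paclitaxel and 4.16, 4.56, 5.84 and 3.5 with vehicle (log2 fold change 2.51 ± 0.49 SE, adjusted p = 0.0123, uncertain). Rag1, the recombinase active only in developing lymphocytes, measured 4.1, 1.78, 5.48 and 2.13 CPM against 0.302, 0.763, 0.71 and 0.523 (log2 fold change 2.54 ± 0.46 SE, adjusted p = 0.00696). Spib, an Ets factor of B cells, measured 26.6, 5.17, 27.2 and 10.9 CPM against 0.907, 3.52, 1.95 and 1.16 (log2 fold change 3.20 ± 0.57 SE, adjusted p = 0.00937), and Pou2af1, a B cell coactivator, 10.4, 1.38, 10.1 and 2.81 against 0.0605, 1.76, 0.474 and 0.581 (log2 fold change 3.08 ± 0.76 SE, adjusted p = 0.0274). For Pou2af1 the groups overlapped, and its call was lost without paclitaxel 1 or 3 or oxaliplatin 1 or 3 (highest adjusted p of 20 alternatives 0.086). The 13 calls became 7 without paclitaxel 1 or oxaliplatin 3 and 6 without paclitaxel 3. Of the 11 T and NK cell genes tested, out of 24 listed, 0 were called by edgeR, DESeq2 or limma, and 0 had an unadjusted p under 0.05. Of 8 mast cell genes 0 were called by edgeR or DESeq2 and 1 by limma with quality weights, and 2 had an unadjusted p under 0.05. Without oxaliplatin 4 edgeR called 1 mast cell gene higher.

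Part of the adipocyte genes followed a related pattern. Of 31 tested, 10 were higher (32.3%) and 2 lower (6.45%), with a median of 0.26. The list was not uniform, with 20 positive and 11 negative log2 fold changes. Its summed level overlapped between the drugs, at 1970.2 to 2191.0 CPM with oxaliplatin and 2032.0 to 2308.1 with paclitaxel. The 3 genes given next are among those with large increases. Adipoq, the hormone adiponectin of fat cells, measured 16.3, 8.1, 9.09 and 3.54 CPM with oxaliplatin, 0.181, 2.58, 0.947 and 0.813 with paclitaxel and 1.62, 1.11, 2.23 and 1.89 with vehicle (log2 fold change 3.02 ± 0.58 SE, adjusted p = 0.0105). Fabp4, a fatty acid carrier, measured 16.8, 6.95, 10.2 and 5.56 CPM against 0.726, 3.17, 1.3 and 0.987 (log2 fold change 2.67 ± 0.42 SE, adjusted p = 0.00448), and Thrsp, a regulator of lipid synthesis, 19.1, 7.64, 11.4 and 3.26 against 0.363, 1.7, 0.592 and 0.407 (log2 fold change 3.74 ± 0.58 SE, adjusted p = 0.00515). Oxaliplatin 1 was the highest and paclitaxel 1 the lowest library in all 3. The count of 10 became 5 without paclitaxel 1 or 3 and 6 without oxaliplatin 1 or 3. Markers of red cells, B cells and fat thus marked the same libraries, oxaliplatin 1 and 3 above and paclitaxel 1 below, and their part in the other results was not tested.

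**Figure D3:**
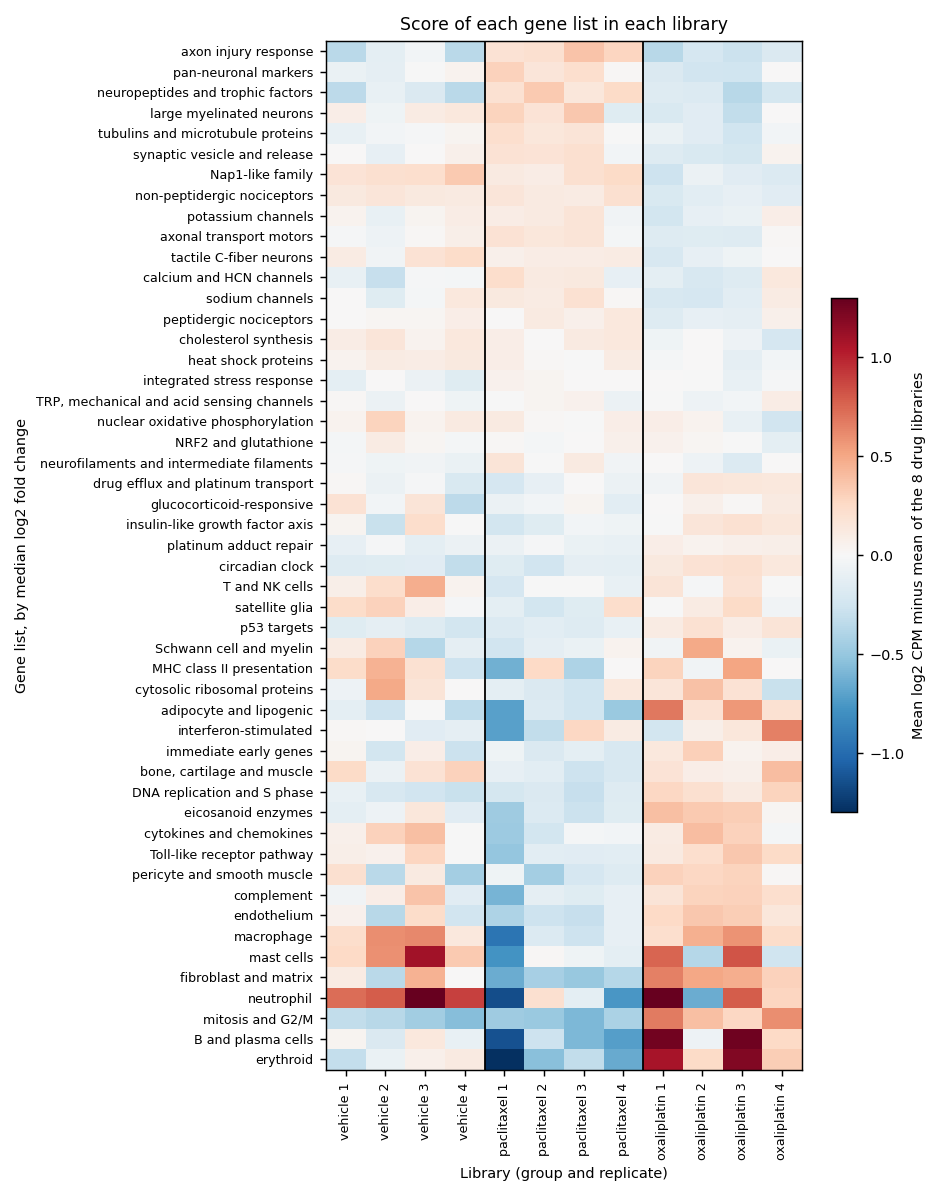
Score of each of 50 gene lists (rows, ordered by median log2 fold change) in each of 12 libraries (columns), as the mean log2 CPM of the members minus its mean over the 8 drug libraries, red for high and blue for low. Erythroid and B cell rows are strongest in oxaliplatin 1 and 3 and weakest in paclitaxel 1, whereas mitosis is red in all 4 oxaliplatin libraries and blue in the other 8, and the injury row is red in the 4 paclitaxel libraries alone.

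Genes of connective tissue were higher with oxaliplatin in an even manner. Of 36 fibroblast and matrix genes 23 were higher (63.9%) and 36 had a positive log2 fold change, with a median of 0.81. Fbn1, which encodes fibrillin-1 of elastic fibres, measured 214, 185, 179 and 158 CPM with oxaliplatin, 61.9, 92.5, 77 and 70.4 with paclitaxel and 106, 72.1, 159 and 127 with vehicle (log2 fold change 1.29 ± 0.20 SE, adjusted p = 0.00424). Col3a1 and Col5a1, fibrillar collagens, measured 1477, 1416, 1072 and 1273 against 765, 739.99, 657 and 819 (log2 fold change 0.81 ± 0.12 SE, adjusted p = 0.0037) and 273, 264, 247 and 266 against 158, 141, 150.3 and 178 (log2 fold change 0.74 ± 0.10 SE, adjusted p = 0.00224). Mmp2, a gelatinase made by fibroblasts, measured 195, 174, 152 and 153 CPM with oxaliplatin, 71.4, 80.8, 71.3 and 89.5 with paclitaxel and 104, 112, 127 and 92.7 with vehicle (log2 fold change 1.10 ± 0.12 SE, adjusted p = 0.000305). In Mmp2 each oxaliplatin library lay above and each paclitaxel library below the whole vehicle range. The matrix score ran from 0.30 to 0.65 with oxaliplatin and from -0.64 to -0.37 with paclitaxel, while vehicle spread from -0.35 to 0.45, and the 23 calls stayed within 1.5 times that number whichever library was left out.

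Vascular genes shifted in the same direction. Of 27 endothelial genes 11 were higher (40.7%) and 27 had a positive log2 fold change (median 0.54). Clec14a, an endothelial lectin, measured 15.6, 19.5, 22.6 and 17.6 CPM against 8.1, 9.62, 7.34 and 11.4 (log2 fold change 1.05 ± 0.18 SE, adjusted p = 0.00571), and Eng, endoglin, 58.5, 56.5, 52.7 and 45.4 against 33.9, 27.2, 27.4 and 31.7 (log2 fold change 0.83 ± 0.15 SE, adjusted p = 0.00801). Of 20 pericyte and smooth muscle genes 5 were higher (25%, median 0.45), among them Pdgfrb (0.43 ± 0.11), a call lost without paclitaxel 1, 2 or 3 or oxaliplatin 1 or 3 (highest adjusted p of 20 alternatives 0.0865). Endothelial calls became 4 without paclitaxel 1, 2 or 3, 6 without oxaliplatin 1 or 2 and 3 without oxaliplatin 3, and pericyte calls 1 or 2 without paclitaxel 1, 2 or 3 or oxaliplatin 1 or 3. Of 22 bone, cartilage and muscle genes, which no ganglion cell is defined by, 4 were higher (18.2%, median 0.32), including Ctsk, an osteoclast protease (0.93 ± 0.17), and the muscle gene Tnnt3 (1.51 ± 0.41), and the count was 2 without paclitaxel 1 or 3 and 1 without oxaliplatin 3. Tnnt3 lost its call without paclitaxel 1, 2 or 3 or oxaliplatin 1 or 3 (highest adjusted p of 20 alternatives 0.0958).

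Glial genes showed little. Of 25 satellite glial genes 2 were higher and 1 lower (8% and 4%, median 0.17), and of 27 Schwann cell and myelin genes 1 was higher (3.7%, median 0.24), shares close to the background, though without paclitaxel 4 the higher counts were 6 and 4. Gja1, the gap junction protein connexin 43 that couples satellite glia, measured 33.7, 37.6, 48.2 and 33.8 CPM with oxaliplatin, 23.2, 28, 22 and 32.2 with paclitaxel and 43.1, 36.3, 35.1 and 28.9 with vehicle (log2 fold change 0.54 ± 0.15 SE, adjusted p = 0.0382). Its call was lost without vehicle 3 or paclitaxel 1, 2 or 3 or oxaliplatin 2 or 3 (highest adjusted p of 20 alternatives 0.129). Erbb3, the neuregulin receptor of Schwann cells, differed by 0.42 ± 0.12 with overlapping groups, and its call was lost without paclitaxel 1, 2 or 3 or oxaliplatin 1, 2 or 3 (highest adjusted p of 20 alternatives 0.132).

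Stress and metabolic genes were called mostly in the lower direction. Of 38 genes of the NRF2 pathway, which counters oxidative damage, 7 were lower (18.4%) and 1 higher, with a median of -0.08. Srxn1, sulfiredoxin, measured 89.2, 89.4, 82.8 and 89.7 CPM with oxaliplatin, 130.5, 130.2, 145 and 114 with paclitaxel and 97.3, 98.8, 92.7 and 111 with vehicle (log2 fold change -0.57 ± 0.08 SE, adjusted p = 0.00298, uncertain), so that paclitaxel lay above both others. Nqo1, a quinone reductase, measured 65.2, 60.9, 62.3 and 61.6 CPM against 88.1, 82.7, 85.1 and 77.9 (log2 fold change -0.42 ± 0.10 SE, adjusted p = 0.0173), and Sod2, the mitochondrial superoxide dismutase, 152, 193, 194 and 199 against 233, 236, 239 and 250.1 with vehicle at 245, 225, 216 and 239.7 (log2 fold change -0.38 ± 0.09 SE, adjusted p = 0.0193), where oxaliplatin lay below both others. Nqo1 lost its call without paclitaxel 3 or oxaliplatin 3 (highest adjusted p of 20 alternatives 0.0536), and Sod2 without paclitaxel 3 (highest adjusted p of 20 alternatives 0.0584). On FPKM values Sod2 also lost its call. The NRF2 count was 4, 3 and 1 without paclitaxel 1, 2 and 3 and 3 without oxaliplatin 2 or 3. Of 42 heat shock genes 6 were lower (14.3%, median -0.14), including the small heat shock gene Hspb8 (-0.32 ± 0.07), and the count was 3 without paclitaxel 3 or oxaliplatin 2 and 1 without oxaliplatin 3, where Hspb8 was not called. Of 31 genes of cholesterol synthesis and uptake 5 were lower and 1 higher (16.1% and 3.23%, median -0.15). The lower count was 1 without paclitaxel 1, paclitaxel 3 or oxaliplatin 3 and 8 without paclitaxel 4. Of 29 genes of the integrated stress response 2 were lower and 1 higher (6.9% and 3.45%), which lies near the background.

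Immediate early genes, induced within minutes by activity or handling, were higher for 7 and lower for 1 of 38 (18.4% and 2.63%, median 0.31). Klf4 measured 25.8, 30.04, 24.7 and 22.3 CPM against 11.1, 14.8, 10.7 and 10.1 (log2 fold change 1.14 ± 0.24 SE, adjusted p = 0.0125), whereas Fos, with a log2 fold change of 0.83, and Egr1, with 0.64, were not called. The count of 7 became 3 or 4 without paclitaxel 1, 2 or 3 or oxaliplatin 2 or 3. Of 27 glucocorticoid-responsive genes 2 were higher and 1 lower (7.41% and 3.7%, median 0.10), with Tsc22d3, the sensitive target GILZ, at -0.30 ± 0.09, a call lost without vehicle 1 or paclitaxel 1, 2 or 3 or oxaliplatin 1, 2 or 3 (highest adjusted p of 20 alternatives 0.124). Of 73 nuclear genes of oxidative phosphorylation 2 were lower (2.74%, median -0.11), among them Uqcrfs1, the Rieske subunit (-0.30 ± 0.06), while DESeq2 called 12, and edgeR called 13 without paclitaxel 4 and 6 without oxaliplatin 1. Of 74 cytosolic ribosomal protein genes 69 had a positive log2 fold change (median 0.25). With all 12 libraries 0 were called by edgeR or DESeq2, with 9 at an unadjusted p under 0.05 and 22 called by limma with quality weights. Without oxaliplatin 4 edgeR called 10 of them higher, and without paclitaxel 4 it called 1.

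**Figure D4:**
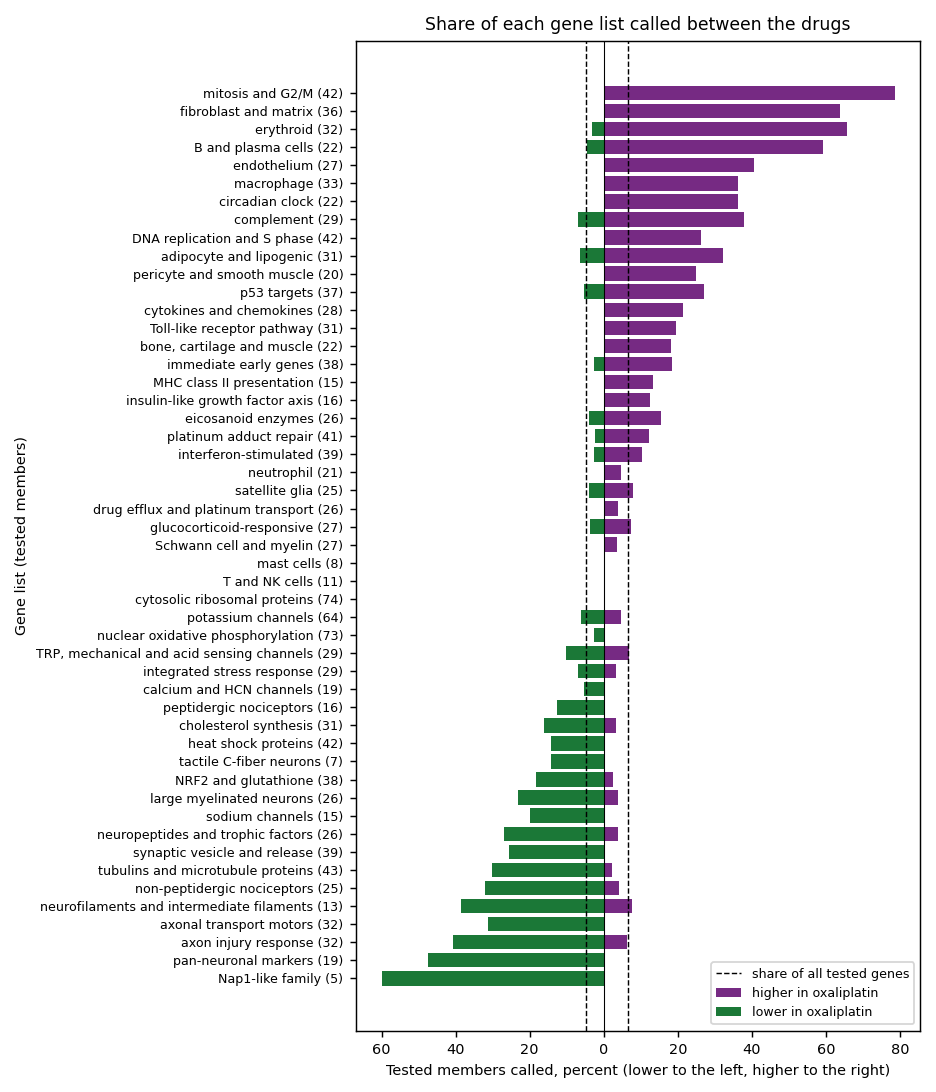
Share of the tested members of each list (number in brackets) called higher (right) or lower (left) in oxaliplatin than in paclitaxel, in percent, with dashed lines at the shares of all tested genes (6.6% and 4.71%). Mitosis (78.6%), erythroid (65.6%) and fibroblast and matrix (63.9%) reach furthest right, and the Nap1-like family (3 of 5), general neuronal markers (47.4%) and the injury response (40.6%) furthest left. The lists were chosen with earlier results of these data known, so the shares describe them only.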

How the data were processed

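RNA of rat dorsal root ganglia was sequenced in 12 libraries, 4 each of vehicle, paclitaxel and oxaliplatin. Per the labels' protocols, RNA was extracted with Trizol and libraries were made with a BGISEQ-500 kit, while the same text also refers to Illumina protocols. CASAVA 1.4 and Bowtie2 appear per the submitters' processing notes. Not given in the sources used here are the quantifier, genome build and strand setting. For each library the authors deposited estimated counts per gene (expected counts, which can be fractional) and FPKM values, with no gene listed below an FPKM of 0.01.

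The tables were joined on gene ID, with an absent gene as 0, and symbols were checked in a RefSeq table holding 18549 of the 20152 IDs. Of the symbols, 27 had become dates and 32 named several IDs, and 30 genes took their name from that table. Expected counts were rounded and tested with edgeR 4.0.16 in R 4.3.3 (filterByExpr, TMM, robust quasi-likelihood) in 1 fit of all 12 libraries with 3 group means, contrast oxaliplatin minus paclitaxel, Benjamini-Hochberg threshold 0.05. Levels are CPM with TMM factors. The SE given with a log2 fold change was derived from the test. It is the absolute log2 fold change divided by the square root of the F statistic. Genes with a fractional estimated count in over 6 libraries share reads and were marked uncertain. The edgeR fit was tested on simulated counts, and the DESeq2 and limma alternatives were not. Alternatives used DESeq2 1.42.0, limma 3.58.1 on counts and on log2(FPKM + 1 or 0.1), other scaling and filters, and left-out libraries. The members and gene lists were chosen with earlier results of these data known. Named genes were, at a mean log2 CPM of at least 1, the 10 called genes in each direction with the smallest p, a proper symbol and no overlap between the drugs, the 4 called genes with the largest fold each way, up to 6 called members of each list by p (or the 2 with the smallest p), and the pain and injury genes Atf3, Gal, Ecel1, Calca, Trpv1, Trpa1, Scn9a, Scn10a, Cdkn1a, Ccl2 and Igf1. Further members given with a log2 fold change alone, such as Aurka, were added after their values were seen. Which of the list members appear in the text was chosen after their values were seen.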

Additional observations from a re-analysis of the deposited data

Results flagged for a closer look

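In 23 of 406 sets of 4 libraries, 1 library stood apart from the other 3 by a Dixon test, which compares the gap to the nearest library with the range of the 4. Chance flags about 1 in 20 sets.

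Among genes higher with oxaliplatin, Alox15 in oxaliplatin 4 measured 70.5 CPM against 143 to 149 in the other 3, and Dbp in the same library 47.2 against 68.1 to 71.9. Per3 in oxaliplatin 3 measured 55.4 CPM against 43.4 to 44.5, and Per2 in that library 23.7 against 21.9 to 22.2. Mcm6 in oxaliplatin 1 measured 9.18 CPM against 7.42 to 7.7, and Cd86 in oxaliplatin 4 measured 0.73 against 0.96 to 0.982. Spi1 in paclitaxel 2 measured 7.45 CPM against 6.69 to 6.77, Rev1 in paclitaxel 4 measured 21.7 against 20.3 in each of the others, P2rx7 in paclitaxel 4 measured 34.3 against 19.1 to 21.5, and Erbb3 in paclitaxel 4 measured 180 against 131 to 138.

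Among genes lower with oxaliplatin, Srxn1 in oxaliplatin 3 measured 82.8 CPM against 89.2 to 89.7, Sod2 in oxaliplatin 1 measured 152 against 193 to 199, and Scn1a in oxaliplatin 4 measured 110 against 84.5 to 85. P2rx3 in paclitaxel 1 measured 766 CPM against 826 to 829 and Hspb1 in paclitaxel 1 measured 333 against 222 to 237.

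Among neuronal genes in oxaliplatin 4, Pou4f1 measured 143 CPM against 112 to 117, and Rbfox3, which was not called, measured 112 against 77 to 80.8.

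Among list scores, the transport motors stood at 0.02 in oxaliplatin 4 against -0.17 to -0.16, and the pericyte list at 0.02 in oxaliplatin 4 against 0.27 to 0.30. The synaptic list stood at -0.04 in paclitaxel 4 against 0.18 to 0.21. Paclitaxel 1 had the lowest complement score, -0.60 against -0.16 to -0.11, and the lowest Toll-like receptor score, -0.50 against -0.15 to -0.14. The drug efflux score was -0.05 in oxaliplatin 1 against 0.14 to 0.16.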

How the results depend on the processing

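Of 126 called genes named, 85 kept their call in all 20 alternatives, 41 lost it in at least 1, and 0 changed direction. Losses were most frequent without paclitaxel 3 (37) and without oxaliplatin 3 (35). Against 1044 higher and 744 lower calls, DESeq2 gave 1352 and 1443, voom with quality weights (limma) gave 2446 and 2334, and FPKM values gave 1507 and 277 as log2(FPKM + 1), and 1456 and 263 as log2(FPKM + 0.1). The 8 drug libraries alone gave 757 and 259. RLE scaling gave 991 and 893 and no expression filter 906 and 680. Leaving out 1 library gave 393 to 1786 higher and 174 to 1677 lower. No label says that replicate numbers pair the libraries. Deviations of same-numbered oxaliplatin and paclitaxel libraries correlated at 0.055, -0.149, 0.03 and -0.232, and not every library correlated best with its own number. These correlations cannot exclude a pairing, because they rest on deviations within groups of 4 libraries. A fit with the replicate number as a block gave 677 higher and 309 lower. Counting depth was similar in all libraries, and genes at a few CPM carry the widest errors.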
